A study of Mus musculus with 30 samples.

Results

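A set of 10 genes of fibroblast growth factor (FGF) signalling were followed in the cortex of mice with and without Tbr1, which encodes a T-box factor of early-born cortical neurons. They were the ligand gene Fgf9, the receptor genes Fgfr1, Fgfr2 and Fgfr3, the transcription factor genes Etv4 and Etv5, and the feedback inhibitor genes Spry1, Spry2, Spry4 and Dusp6. A gene was included when it was named alone by a probe set in each of the 2 deposited tables, which held for 10 of 10 members among the 16553 genes found in both tables. Where a table held several such probe sets of a gene, the brightest on average was used. All mice were on the CD1 background. Knockout (KO) animals were Tbr1 -/- offspring of crosses between heterozygotes, so the mutation was carried by every cell, and the others were labelled wild type (WT). RNA of E14.5 neocortex was measured on 3 KO and 3 WT arrays, and RNA of frontal, parietal and occipital tissue of P0.5 brains on 4 KO and 4 WT arrays per region, 30 arrays in all. The series asked which genes depend on Tbr1 in the embryonic neocortex and in the regions of the newborn cortex.

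FGFs are secreted proteins that bind receptor tyrosine kinases together with heparan sulphate and switch on the Ras and MAP kinase cascade in the receiving cell. That cascade induces the ETS factors Etv4 and Etv5 together with its own inhibitors, the Sprouty proteins, which act on the receptor and Ras steps, and Dusp6, a phosphatase that inactivates ERK, so the messages of these genes are used as readouts of FGF signalling. In the embryonic telencephalon FGFs of the rostral patterning centre favour frontal identity, and Fgfr3 is known as a gene with high caudal expression, later made by astrocytes.

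Promoter windows are shown for Fgf9, the member with the largest difference between KO and WT at P0.5, and for Dusp6, the only one whose window held a searched motif. The windows run from 250 bases before to 50 bases after an annotated start and come from RefSeq (GRCm38.p6). That table gave 9 windows for 7 of the 10 members, and none for Fgfr1, Etv4 and Spry4. Both strands were searched for the T-box site AGGTGTGA and its core GGTGTG, which overlap, and for the ETS site CCGGAAGT and its core CGGAAG, which overlap too. Of 32851 windows of this length, 1.28% held AGGTGTGA, 19.0% GGTGTG, 3.89% CCGGAAGT and 16.9% CGGAAG. The Fgf9 window, chr14:58072436-58072735 on the plus strand, belongs to a start inside the gene's span (58070671 to 58112854) and held none of these letters. The Dusp6 window, chr10:99262981-99263280 on the plus strand at the start of the gene (99263231 to 99267489), held 1 GGTGTG on the forward strand (bases 29 to 34 after the start) and 1 CGGAAG on the reverse strand (bases -62 to -57). Capitals mark these matches, the second as its reverse complement CTTCCG.
Fgf9: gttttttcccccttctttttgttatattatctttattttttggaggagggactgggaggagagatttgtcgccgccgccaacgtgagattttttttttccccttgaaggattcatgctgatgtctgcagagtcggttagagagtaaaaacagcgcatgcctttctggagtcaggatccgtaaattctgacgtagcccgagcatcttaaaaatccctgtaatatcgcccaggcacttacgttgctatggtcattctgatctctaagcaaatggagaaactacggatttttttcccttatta
Dusp6: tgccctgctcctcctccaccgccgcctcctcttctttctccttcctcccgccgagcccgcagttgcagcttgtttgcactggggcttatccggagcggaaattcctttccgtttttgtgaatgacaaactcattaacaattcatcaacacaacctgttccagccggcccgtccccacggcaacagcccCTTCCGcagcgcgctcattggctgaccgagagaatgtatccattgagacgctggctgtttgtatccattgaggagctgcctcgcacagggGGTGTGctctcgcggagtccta

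Values are log2 signals, so a difference of 1 is a doubling of signal, and levels were compared only within a stage, since the stages were on different array types. No read depth applies to arrays, and precision depends on how many there are and on the spread between them. Tbr1 itself was lower on every KO array than on every WT array of the same region at P0.5, with mean differences of -0.63 (frontal), -0.58 (parietal) and -0.84 (occipital). Tbr1 signal nevertheless remained on the KO arrays, with means of 9.73 (frontal), 9.69 (parietal) and 9.27 (occipital). The WT means were 10.35, 10.27 and 10.11, and the array medians 7.42 to 7.52. The source of this remaining signal was not tested. At E14.5 the Tbr1 difference was -1.29 and was not called (limma adjusted p = 0.850). KO replicate 1 at 8.69 was close to the lowest WT array at 8.89. KO replicate 1 at E14.5 and WT frontal replicate 4 at P0.5 stood apart, with median correlations to the other arrays of 0.955 and 0.979. The mean of 3 Y-linked genes was above 7 on 0 of 4 KO frontal and 4 of 4 WT frontal arrays, on 2 KO and 3 WT parietal arrays, and on 3 KO and 4 WT occipital arrays. In frontal tissue Tbr1 genotype and sex-linked expression therefore cannot be told apart from these 8 arrays alone. On 5 parietal or occipital arrays both the Y-linked mean and Xist, the RNA of the inactive X chromosome, were above 7. The 6 cortical and general neuron markers averaged between 10.80 and 11.21 on the P0.5 arrays, against array medians of 7.42 to 7.52.

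Fgf9, which encodes a ligand released by neurons, was higher in KO tissue in each P0.5 region, and the difference passed the test in frontal and occipital tissue. In bulk tissue such as this, more cells of a type and more RNA per cell cannot be told apart, nor can fewer cells and less RNA. In frontal tissue its signal was 8.94, 8.96, 9.07 and 9.0 on the KO arrays, against 8.24, 8.26, 8.29 and 8.33 on the WT arrays. The 2 groups were far apart and each was tight, with SDs of 0.06 (KO) and 0.04 (WT). In occipital tissue it was 9.44, 9.03, 9.51 and 9.09 in KO, against 8.24, 8.07, 8.02 and 8.64 in WT. Here KO replicates 1 and 3 were the high ones, and the lowest KO array still lay above the highest WT array. Fgf9 rose by 0.71 in KO frontal tissue (1.64-fold, SE 0.109, limma adjusted p = 8.98e-05) and by 1.02 in KO occipital tissue (2.03-fold, adjusted p = 2.98e-06). In parietal tissue it was 8.67, 8.70, 8.54 and 8.47 in KO and 8.37, 8.29, 8.26 and 8.20 in WT. These groups did not overlap either, but the difference of 0.32 was not called (95% interval 0.09 to 0.54, limma adjusted p = 0.193).

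The order of the group means of Fgf9 was KO occipital (9.27), KO frontal (8.99), KO parietal (8.60), WT parietal (8.28), WT frontal (8.28) and WT occipital (8.24). The 3 WT means lay within 0.04 of each other, less than the SD of the WT occipital arrays (0.28). Among KO regions parietal tissue was lower than occipital tissue by 0.67 (1.59-fold, limma adjusted p = 0.00564). Frontal against parietal KO tissue gave 0.40 (adjusted p = 0.155), and frontal against occipital KO tissue -0.27 (adjusted p = 0.212), so neither of these was called. With Y-linked signal as a covariate the differences were 0.62 in frontal tissue (limma adjusted p = 0.0320) and 1.00 in occipital tissue (adjusted p = 9.17e-06). The Y-linked means of KO occipital replicates 1 to 4 were 9.32, 9.18, 5.88 and 9.02, beside Fgf9 signals of 9.44, 9.03, 9.51 and 9.09. Leaving out single arrays moved the difference between 0.69 and 0.73 in frontal and between 0.94 and 1.16 in occipital tissue.

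**Figure D1:**
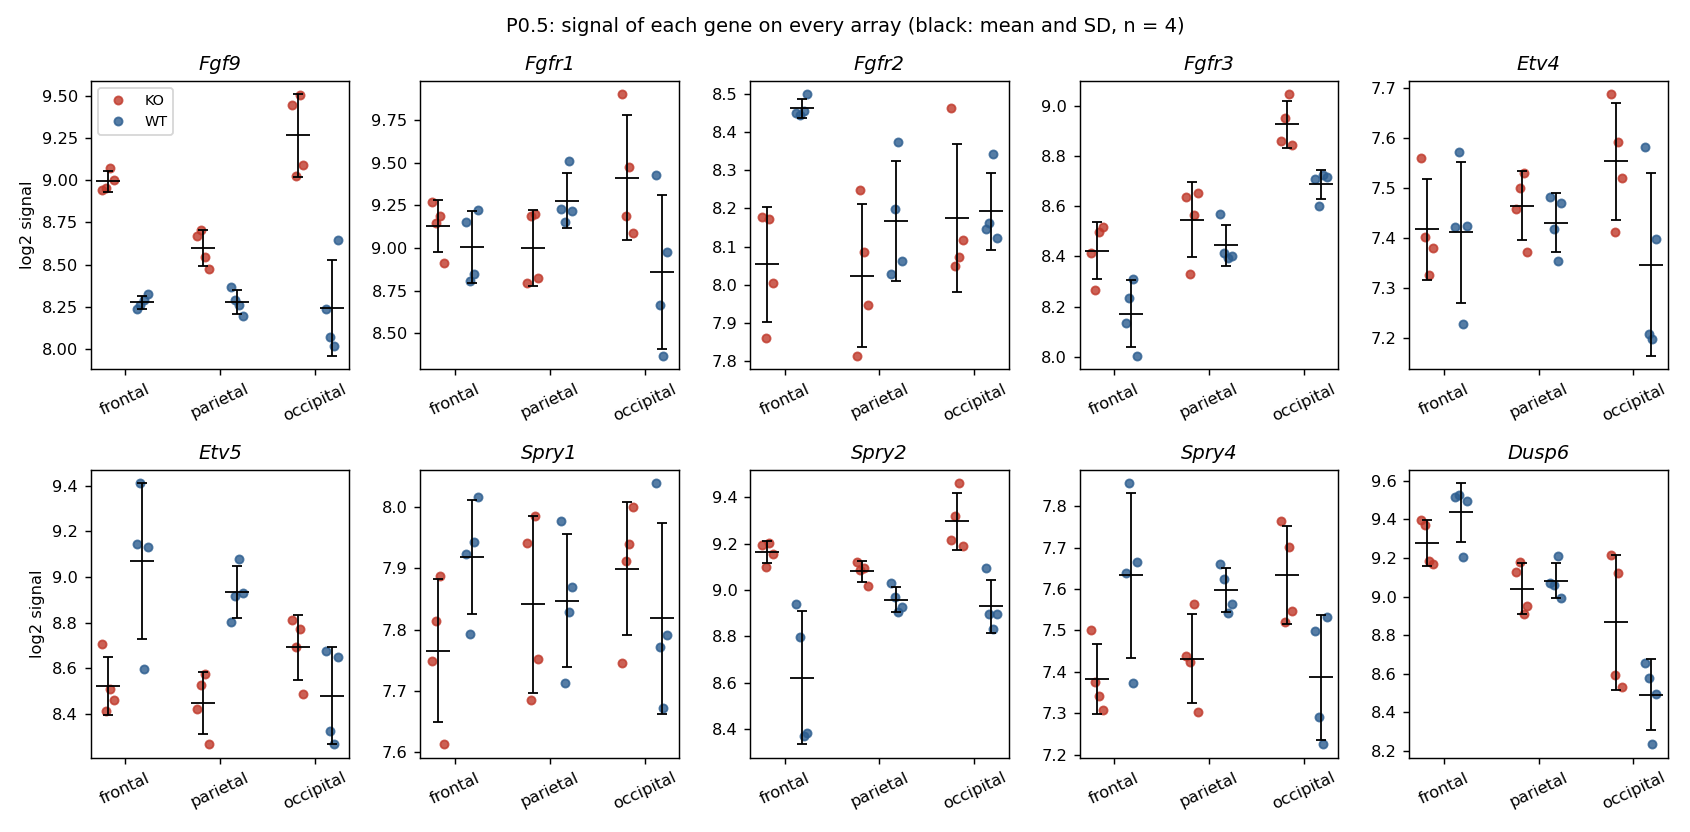
Log2 signal of each gene on every P0.5 array (y axis, scaled per gene), KO in red left of WT in blue, by region. Black bars are the mean and SD of 4 arrays. The Fgf9 arrays of KO lie above those of WT in each region. The mean of Etv5 is lower in KO in frontal and parietal tissue, and its KO and WT arrays overlap in frontal and occipital tissue.

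Of the 3 receptor genes 1 was called between KO and WT within a region. Fgfr2, whose receptor serves radial glia and the oligodendrocyte lineage, was called lower in KO frontal tissue and in neither other region. Its frontal signal was 8.18, 7.86, 8.17 and 8.0 in KO, against 8.45, 8.44, 8.46 and 8.50 in WT. The groups did not overlap, with KO lower, and the WT arrays were within 0.06 of each other. The difference was -0.41 (1.33-fold lower, SE 0.101, limma adjusted p = 0.0121). In parietal and occipital tissue the groups overlapped, with differences of -0.14 (adjusted p = 0.828) and -0.02 (adjusted p = 0.971). A test of whether the frontal difference differed from the occipital one gave -0.39 (limma adjusted p = 0.176). With Y-linked signal as a covariate the frontal difference was -0.44 and no longer called (limma adjusted p = 0.152).

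Fgfr3 followed the region in both genotypes, with occipital tissue highest. In KO its signal was 8.41, 8.27, 8.50 and 8.52 in frontal tissue, against 8.86, 8.95, 9.05 and 8.84 in occipital tissue. In WT it was 8.14, 8.24, 8.31 and 8.0 in frontal tissue, against 8.71, 8.60, 8.73 and 8.72 in occipital tissue. Frontal and occipital arrays did not overlap in either genotype. Frontal tissue was lower by 0.50 in KO (log2 difference -0.50, 1.42-fold, limma adjusted p = 3.55e-04) and by 0.52 in WT (-0.52, 1.43-fold, adjusted p = 2.64e-04). The difference between these differences was 0.01 with a 95% interval of -0.22 to 0.25. Parietal KO tissue was also lower than occipital KO tissue, by 0.38 (log2 difference -0.38, limma adjusted p = 0.0290), a call that was lost without any 1 of 5 single arrays (adjusted p up to 0.172). The same difference in WT was -0.24 (adjusted p = 0.296).

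Against WT, Fgfr3 was higher in KO by 0.25 in frontal (limma adjusted p = 0.0553), 0.10 in parietal (adjusted p = 0.875) and 0.24 in occipital tissue (adjusted p = 0.194), none of which was called. KO and WT occipital arrays did not overlap, with KO above. Over the regions, with the 3 same-numbered arrays of a genotype averaged into 4 KO and 4 WT values, the difference of 0.20 was called (SE 0.0512, limma adjusted p = 0.0300). It lost its call without KO replicate 1, 3 or 4 or WT replicate 2 or 4, with values of 0.17 to 0.20. Of 7 astrocyte markers 6 were also called higher over the regions (4.71% of all genes were), and their part in this value was not tested. Fgfr1, the receptor gene with the widest expression in the developing brain, was not called in any comparison. Its spread was wide, with SDs of 0.36 and 0.45 in KO and WT occipital tissue. There it was 9.90, 9.19, 9.47 and 9.09 in KO and 9.43, 8.67, 8.37 and 8.98 in WT, overlapping, with a difference of 0.55 (limma adjusted p = 0.143). In the other regions it differed by 0.12 (frontal) and -0.28 (parietal).

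**Figure D2:**
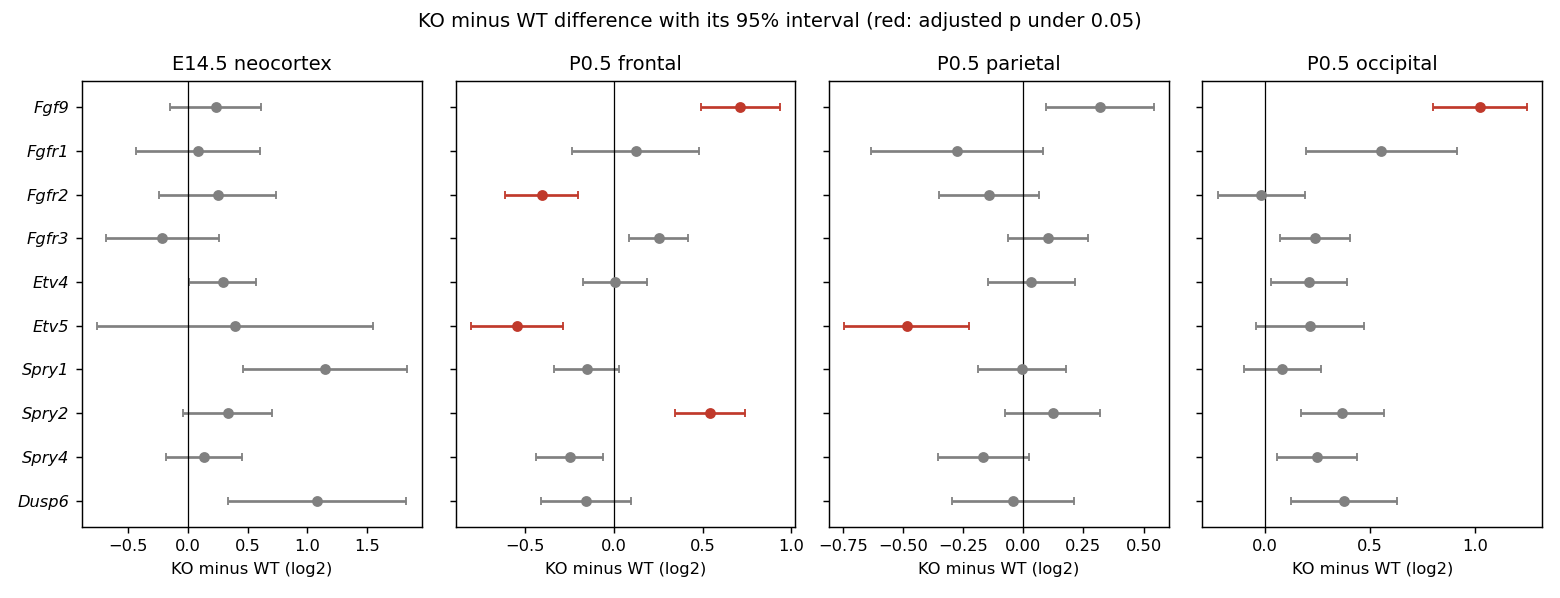
KO minus WT log2 difference of each gene (points) with its 95% interval (lines), for E14.5 neocortex and the P0.5 regions. Red marks an adjusted p under 0.05. Fgf9 is the member farthest to the right in frontal (0.71) and occipital tissue (1.02), and the E14.5 intervals are the widest.

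Etv5, an ETS factor induced by FGF signals, was lower in KO frontal and parietal tissue. Its frontal signal was 8.70, 8.41, 8.51 and 8.46 in KO, against 9.14, 9.41, 8.60 and 9.13 in WT. WT frontal replicate 3 was low and fell between KO arrays, so the groups overlapped through it. In parietal tissue the signal was 8.42, 8.53, 8.57 and 8.27 in KO and 8.80, 8.91, 9.08 and 8.93 in WT, and the groups did not overlap. The differences were -0.55 in frontal (1.46-fold lower, SE 0.126, limma adjusted p = 0.00685) and -0.48 in parietal tissue (1.40-fold lower, adjusted p = 0.0417). In occipital tissue, at 8.81, 8.69, 8.77 and 8.49 in KO and 8.67, 8.32, 8.27 and 8.65 in WT, the groups overlapped and the difference was 0.21 (adjusted p = 0.576). The parietal call was lost without KO parietal replicate 1, 2 or 4 or WT parietal replicate 2, 3 or 4 (limma adjusted p from 0.0561 to 0.177), and both calls were lost with Y-linked signal as a covariate (-0.54, adjusted p = 0.171, in frontal, and -0.48, adjusted p = 0.0730, in parietal tissue). A second probe set of the gene gave -0.47 in frontal (limma adjusted p = 0.0415), -0.43 in parietal (adjusted p = 0.166) and 0.33 in occipital tissue (adjusted p = 0.368). Etv4, the related factor, was not called in any comparison. Its group means lay between 7.55 in KO occipital and 7.35 in WT occipital tissue, and its largest SD within a group was 0.18. These means were near the array medians of 7.42 to 7.52.

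Of the Sprouty genes, Spry2 was higher in KO. In frontal tissue its signal was 9.19, 9.10, 9.20 and 9.15 in KO, against 8.94, 8.80, 8.37 and 8.39 in WT. WT replicates 3 and 4 were the low ones, and no WT array reached the KO range. In occipital tissue it was 9.21, 9.32, 9.46 and 9.19 in KO and 9.10, 8.89, 8.83 and 8.89 in WT, again with no overlap. The rise was 0.54 in frontal tissue (1.45-fold, SE 0.0957, limma adjusted p = 5.75e-04) and 0.46 when WT frontal replicate 4 was left out together with KO parietal replicate 2 (adjusted p = 0.00368). With Y-linked signal as a covariate it was 0.50 and not called (limma adjusted p = 0.0654). The occipital difference of 0.37 missed the threshold (adjusted p = 0.0524), and that in parietal tissue was 0.12 (adjusted p = 0.869). Of 7 astrocyte markers 5 were called higher in KO frontal tissue (4.7% of all genes were), 0 in parietal and 1 in occipital tissue (0.762% of all genes were), and their mean level was higher on every KO than on every WT array in parietal (9.09 to 9.35 in KO, 8.69 to 9.07 in WT) and occipital tissue (9.53 to 9.72 in KO, 8.87 to 9.30 in WT). Their part in the Spry2 values was not tested. Spry4 differed by -0.25 in frontal (limma adjusted p = 0.0872), -0.17 in parietal and 0.25 in occipital tissue (adjusted p = 0.262), and Spry1 by -0.15, -0.01 and 0.08 in the same regions, none of them called. Dusp6 differed from WT by -0.16 in frontal, -0.04 in parietal and 0.38 in occipital tissue (limma adjusted p = 0.170). In KO occipital tissue Dusp6 was high in replicates 1 and 3 (9.21 and 9.12) and low in replicates 2 and 4 (8.59 and 8.53), and the WT arrays were at 8.66, 8.58, 8.23 and 8.49.

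Counted over the members, 4 of 10 were called in frontal tissue, Fgf9 and Spry2 higher and Fgfr2 and Etv5 lower in KO, where 7.52% of all 19938 genes were called (4.7% higher and 2.81% lower). In parietal tissue 1 of 10 was called (Etv5, lower), where 1.81% of all genes were called (0.747% lower). In occipital tissue 1 of 10 was called (Fgf9, higher), where 1.34% were called (0.762% higher). KO and WT arrays did not overlap for 3 members in frontal tissue (12.9% of all genes), 2 in parietal (7.41%) and 3 in occipital tissue (6.26%). The median difference of the members was -0.07 in frontal, -0.02 in parietal and 0.24 in occipital tissue, against -0.03, -0.01 and 0.01 over all genes. Over the regions 5 of 10 members were called, where 7.46% of all genes were called (4.71% higher and 2.75% lower). Fgf9 rose by 0.68 (SE 0.0585, limma adjusted p = 5.87e-06), Spry2 by 0.34 (adjusted p = 0.00396) and Fgfr3 by 0.20, while Etv5 differed by -0.27 (adjusted p = 0.0207) and Fgfr2 by -0.19 (adjusted p = 0.0418). The Etv5 value averages regions that differ in sign. The second probe set of Etv5 gave -0.19 over the regions and was not called (limma adjusted p = 0.193). Fgfr2 lost its call without any 1 of 6 replicates (limma adjusted p up to 0.144). With Y-linked signal as a covariate 1 member stayed called in frontal tissue (Fgf9) and 2 over the regions (Fgf9 and Spry2). When the array of each genotype that correlated least with the others was left out (KO parietal replicate 2 and WT frontal replicate 4), the frontal differences were 0.73 for Fgf9, 0.46 for Spry2, -0.40 for Fgfr2 and -0.53 for Etv5, and these 4 calls held.

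The comparison of regions asked whether the members follow the frontal to occipital axis and whether that axis holds without Tbr1. The Y-linked mean was above 7 on 0 KO frontal, 2 KO parietal and 3 KO occipital arrays. In WT it was above 7 on 4 frontal, 3 parietal and 4 occipital arrays. Of the Y-linked genes, Eif2s3y (-4.08, limma adjusted p = 0.0154) and Uty (-2.82, adjusted p = 0.0463) were called between KO frontal and occipital tissue. Differences between KO regions, and the interactions, are therefore mixed in part with sex-linked expression. In KO 1 of 10 members differed between frontal and occipital tissue (Fgfr3, lower in frontal, where 3.22% of all genes were called and 1.76% were lower), and in WT 3 of 10 (Dusp6 and Etv5 higher and Fgfr3 lower in frontal, where 6.03% were called, 2.26% higher and 3.77% lower). Dusp6 had the largest regional difference of the members in WT. In KO its signal was 9.40, 9.37, 9.19 and 9.17 in frontal tissue, against 9.21, 8.59, 9.12 and 8.53 in occipital tissue, and 1 occipital array lay among the frontal ones. In WT it was 9.52, 9.53, 9.21 and 9.49 in frontal tissue, against 8.66, 8.58, 8.23 and 8.49 in occipital tissue, with no overlap. The frontal excess was 0.41 in KO (1.33-fold, limma adjusted p = 0.0644, not called) and 0.95 in WT (1.93-fold, adjusted p = 2.20e-05). Parietal tissue was at 9.12, 9.18, 8.91 and 8.95 in KO and at 9.07, 9.06, 9.21 and 8.99 in WT, and its means (9.04 in KO and 9.08 in WT) lay between those of the other regions, with arrays that overlapped frontal ones in both genotypes and occipital ones in KO. Parietal minus occipital tissue gave 0.18 in KO (limma adjusted p = 0.861) and 0.59 in WT (adjusted p = 0.0195), the WT call being lost without any 1 of 5 single arrays (adjusted p from 0.0529 to 0.102).

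Etv5 was higher in frontal than in occipital tissue in WT, by 0.59 (1.51-fold, limma adjusted p = 0.00592), whereas the same difference in KO was -0.17 (adjusted p = 0.603). In a fit limited to the arrays compared the WT difference was not called (limma adjusted p = 0.0821), nor was the difference of Etv5 between KO and WT in frontal tissue (adjusted p = 0.0555). Its WT frontal and occipital arrays overlapped through WT frontal replicate 3 at 8.60. Spry4 gave -0.25 in KO (adjusted p = 0.164) and 0.25 in WT (adjusted p = 0.0970), and Fgfr2 gave -0.12 in KO (adjusted p = 0.648) and 0.27 in WT (adjusted p = 0.0979). The KO frontal and occipital arrays of Spry4 did not overlap, with the frontal ones lower. Whether the frontal to occipital difference itself changed was tested with the interaction of genotype and region, and 0 of 10 members passed it in limma, where 0.416% of all genes were called. At an unadjusted p under 0.05 stood 4 members and 4017 of the 19938 genes. The interaction was -0.76 for Etv5 (95% interval -1.13 to -0.40, limma adjusted p = 0.0507), -0.50 for Spry4 (adjusted p = 0.0822) and -0.53 for Dusp6 (adjusted p = 0.146). For Etv5 it was called without KO occipital replicate 4, WT frontal replicate 3, WT occipital replicate 1 or WT occipital replicate 4, with adjusted p down to 0.00317. The median interaction was -0.35 over the members and -0.03 over all genes.

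Frontal against parietal tissue gave 0 called members in KO (0.236% of all genes called) and 0 in WT (0.171%) in limma. At an unadjusted p under 0.05 stood 1 member in KO, with 1617 of the 19938 genes, and 4 members in WT, with 2568 genes. Parietal against occipital tissue gave 2 in KO (Fgf9 and Fgfr3, both lower in parietal, where 0.351% were called and 0.176% were lower) and 1 in WT (Dusp6, higher in parietal, where 0.451% were called and 0.256% were higher). The corresponding interactions gave 0 called members each (0.01% of all genes called in either). At an unadjusted p under 0.05 stood 2 members and 1620 genes for frontal against parietal tissue, and 5 members and 784 genes for parietal against occipital tissue. The largest of them was -0.83 for Fgfr1 between parietal and occipital tissue (limma adjusted p = 0.791). Frontal and occipital arrays did not overlap for 2 members in KO (10.1% of all genes) and 3 in WT (12.6%). These regional comparisons use the same arrays as the comparisons of KO with WT, so their values are set side by side and not taken as separate evidence.

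**Figure D3:**
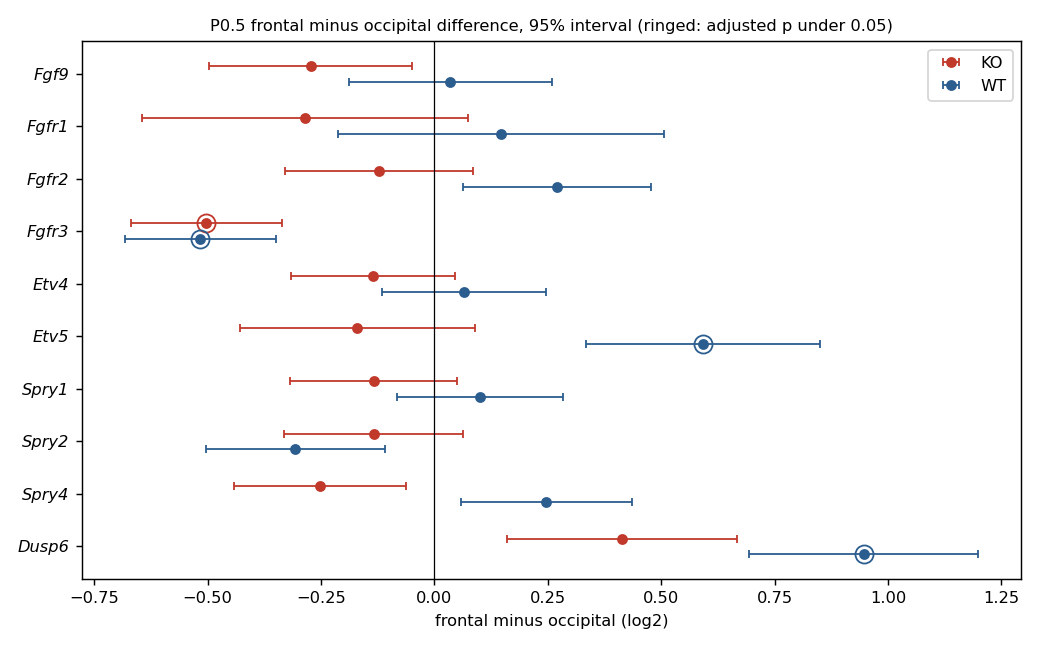
Frontal minus occipital log2 difference of each gene at P0.5 (points) with its 95% interval (lines), KO in red above WT in blue. Rings mark an adjusted p under 0.05. Fgfr3 lies at about the same place in KO (-0.50) and WT (-0.52), and Dusp6 at 0.41 in KO and 0.95 in WT.

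At E14.5 no member passed correction in limma (0% of the 18194 genes were called), and 3 members and 1048 genes had an unadjusted p under 0.05. Tbr1 itself was not called there either (limma adjusted p = 0.850). Spry1, an inhibitor of FGF receptor signalling, was 7.76, 8.56 and 7.54 on the KO arrays, against 6.57, 6.78 and 7.08 on the WT arrays. Dusp6 was 8.32, 8.47 and 7.59 in KO, against 7.58, 6.77 and 6.79 in WT. For both genes the lowest KO array lay above the highest WT array, by 0.46 for Spry1 and by 0.01 for Dusp6. The differences were 1.15 for Spry1 (2.21-fold, 95% interval 0.46 to 1.83) and 1.08 for Dusp6 (2.11-fold, 95% interval 0.34 to 1.82), each with a limma adjusted p of 0.850. Without KO replicate 1, the array that stood apart, they were 1.24 and 0.98. Xist on replicates 1 to 3 was 9.58, 10.17 and 5.07 in KO and 5.01, 10.76 and 5.41 in WT. The part of sex-linked expression in the Spry1 and Dusp6 differences was not tested. Same-numbered arrays were correlated at this stage in their deviations from the group means, though no label gives a pairing. With the replicate block the limma adjusted p of Spry1 and of Dusp6 was 0.568.

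Etv4 and Spry2 were also higher on every KO array at E14.5, by 0.29 and 0.33 on average (limma adjusted p = 0.858 and 0.878). The KO and WT arrays thus did not overlap for 4 of 10 members, each with KO above, against 11.2% of all genes in either direction and 7.43% with KO above. Etv5 was at 7.50, 7.82 and 5.99 in KO and 7.32, 6.31 and 6.48 in WT, with KO replicate 3 lowest of the 6, and its difference of 0.40 had a 95% interval of -0.76 to 1.55. Fgf9 was dim at this stage, at 5.59, 5.05 and 5.11 in KO and 5.01, 4.95 and 5.10 in WT (difference 0.23, adjusted p = 0.944), against array medians of 5.12 to 5.15. The receptors differed by 0.09 (Fgfr1), 0.25 (Fgfr2) and -0.21 (Fgfr3), and Spry4 by 0.13. The second probe set of Spry2 gave 0.00, with a signal of 4.36 against 6.83 for the one used. That of Etv4 gave 0.16 with a signal of 4.84, and the one used, at 5.23, was also near the array medians. The 5 meningeal markers differed in level between the E14.5 groups, with array means of 7.47 to 9.31 in KO and 6.95 to 7.10 in WT (0 of 5 called), and the 6 neuron markers were at 8.99 to 9.64 in KO and 9.77 to 10.43 in WT. Other marker lists also had higher array means in KO, namely thalamus (6.39 to 8.03 in KO, 6.09 to 6.24 in WT), choroid plexus (7.32 to 8.10 in KO, 6.10 to 7.39 in WT) and microglia (6.34 to 6.85 in KO, 6.04 to 6.32 in WT), with no gene called. The part of these tissues and cells in the Spry1 and Dusp6 values was not tested.

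**Figure D4:**
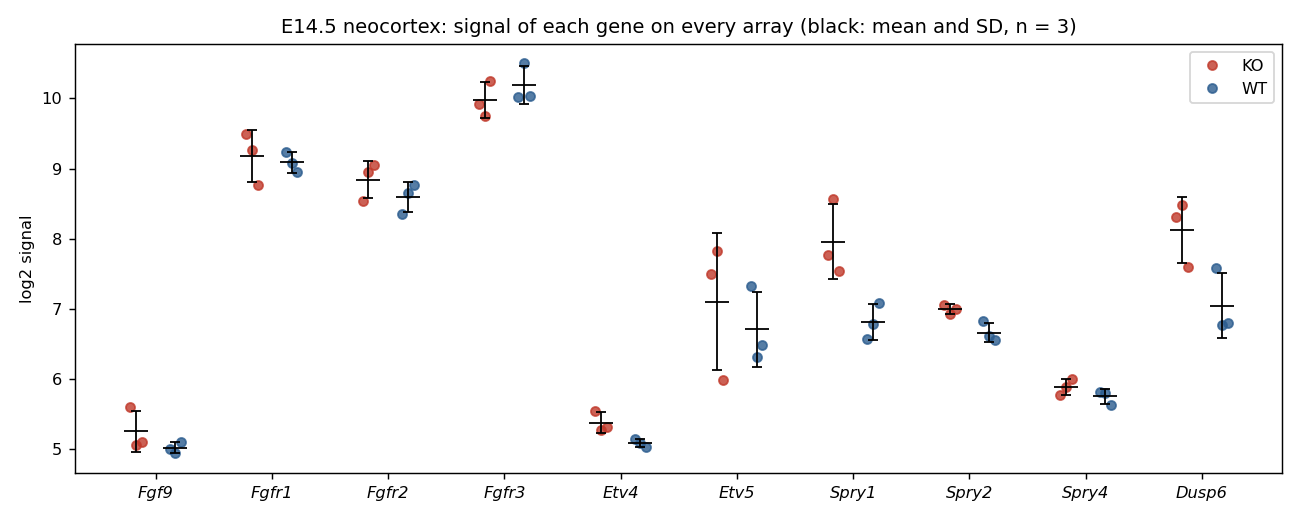
Log2 signal of each gene on every E14.5 neocortex array, KO in red left of WT in blue, with black bars for the mean and SD of 3 arrays. KO and WT arrays of Etv4, Spry1, Spry2 and Dusp6 do not overlap, and those of Etv5 spread most, from 5.99 to 7.82 in KO.

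Other genes of the pathway were read from lists of 13 further ligands, 7 further receptors and cofactors, 11 measured adaptors and kinases and 12 further feedback genes. Over the regions at P0.5, where 4.71% of all genes were called higher, 3 of 13 ligands were called, all higher in KO: Fgf10, a ligand of the Fgfr2 splice form of epithelia (0.59, limma adjusted p = 3.49e-05), Fgf7 of the same subfamily (0.33) and Fgf18 (0.24). Of the cofactors 1 of 7 was called, Flrt3, a membrane protein that binds FGF receptors and also guides axons and migrating neurons. Flrt3 was 0.88 higher in KO (1 of 7, SE 0.0532, adjusted p = 2.93e-07), with group means of 9.06 in KO and 8.07 in WT frontal tissue, 9.35 in KO and 8.23 in WT parietal tissue, and 9.54 in KO and 9.03 in WT occipital tissue. Of the feedback genes 2 of 12 were called, Etv1, the ETS factor closest to Etv4 and Etv5 and a marker of layer 5 neurons (0.57, limma adjusted p = 1.10e-04), and the MAP kinase phosphatase Dusp4 (0.38, adjusted p = 0.0116). Of the adaptors and kinases 0 of 11 were called over the regions. In frontal tissue 3 of 11 were called, all higher in KO (4.7% of all genes were). They were Map2k1 (0.43) and Map2k2 (0.38), the kinases that activate ERK, and the phosphatase Ptpn11 (0.22). In parietal tissue the means in KO and WT were 9.31 and 9.33 (Map2k1), 9.52 and 9.51 (Map2k2), and 10.01 and 10.03 (Ptpn11). Genotype and sex-linked expression cannot be told apart from the frontal arrays alone.

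By region, Fgf10 was higher in KO by 0.52 in frontal (limma adjusted p = 0.00209) and by 1.01 in parietal tissue (adjusted p = 1.20e-06), and Fgf18 by 0.31 in parietal and 0.32 in occipital tissue. Fgf7 was called in frontal tissue only (0.61, limma adjusted p = 0.0108). Its KO and WT means were 6.77 and 6.16 in frontal, 6.63 and 6.32 in parietal, and 6.44 and 6.38 in occipital tissue. These lay below the array medians of 7.42 to 7.52, and the Fgf10 means, from 6.84 to 7.85, lay on both sides of them. Etv1 was higher by 0.59 in frontal and 0.76 in parietal tissue, and its occipital means were 9.64 in KO and 9.29 in WT, a difference that was not called. Dusp4 was higher in occipital tissue by 0.78 (limma adjusted p = 0.0260). Between regions, Flrt3 was lower in frontal than in occipital tissue by 0.49 in KO (log2 difference -0.49, adjusted p = 0.0128) and by 0.96 in WT (-0.96, adjusted p = 5.45e-06). Among the 8 immediate early genes, the rapid targets of many MAP kinase inputs, 1 was called over the regions (Dusp1, 0.18). There 4.71% of all genes were called higher, and in any single region 0 of the 8 were called in limma. At E14.5 no gene of these lists was called.

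Astrocyte markers moved in the same direction as Spry2 and Fgfr3. None of the 7 was called lower in any region. The summed log2 level of the 7 ranged from 60.8 to 66.2 on KO and 57.6 to 63.7 on WT frontal arrays, from 63.6 to 65.4 and 60.8 to 63.5 on KO and WT parietal arrays, and from 66.7 to 68.1 and 62.1 to 65.1 on KO and WT occipital arrays. Of all genes, 4.7% were called higher and 2.81% lower in frontal tissue, and 4.71% higher and 2.75% lower over the regions. In parietal tissue 1.81% were called in either direction. Radial glia markers were called higher for 1 of 8 in frontal tissue (Fabp7) and 1 of 8 in parietal tissue (Hes1), and for 4 of 8 over the regions. Layer 6 markers moved the other way, with 3 of 5 lower and 1 (Fezf2) higher in KO frontal tissue and 4 of 5 lower and 1 higher over the regions. Over the regions 3 of 6 microglia markers (C1qa, C1qb and C1qc) and 2 of 7 oligodendrocyte lineage markers (Mbp, 0.22, and Cnp, 0.29) were higher in KO. Kdr (-0.66), 1 of 6 blood vessel markers, was lower, as was the neuron marker Neurod6 (-0.40), while Bcl11b (0.18) was higher. Striatal markers were called in both directions (2 of 6 higher and 2 lower), and 1 of 4 thalamic markers was higher (Prkcd, 0.29). Markers also differed between regions. In WT, Aldoc (-1.13), Fabp7 (-0.70), Pax6 (-0.60), Sox2 (-0.56), Aif1 (-0.39) and Ttr (-3.17) were called lower in frontal than in occipital tissue. Rbfox3 (0.28), Neurod6 (0.58), Neurod2 (0.31), Syt6 (0.78), Drd1 (0.39) and Ppp1r1b (1.03) were called higher (3.77% of all genes were lower and 2.26% higher). In KO, Slc1a2, Slc1a3 and Isl1 were called lower, and Neurod6, Neurod2, Tubb3, Foxp2 and Foxp1 higher (3.22% of all genes called). The part of these cell types in the values of the members was not tested.

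Within groups the members varied together in part. Taking each array as its deviation from its group mean over the 24 P0.5 arrays, which removes region and genotype, Etv4 and Spry4 had a Pearson r of 0.89, Etv5 and Spry4 of 0.86, Etv4 and Etv5 of 0.76 and Fgfr1 and Dusp6 of 0.69. These are descriptions of arrays that also share extraction and scaling. Etv4 and Spry4 had mean signals of 7.44 and 7.51, near the array medians of 7.42 to 7.52. Fgf9 and Spry2 had an r of 0.70 over the arrays as they are but 0.11 within groups, so they were alike in group means and not array by array. In KO occipital tissue replicates 1 and 3 were the 2 highest arrays for 6 of 10 members (Fgf9, Fgfr1, Etv4, Etv5, Spry4 and Dusp6), and in WT occipital tissue replicates 1 and 4 were for 7 of 10. WT frontal replicate 3 was the lowest of its group for 5 members, among them Etv4, Etv5, Spry4 and Dusp6. Spry1 stood apart from the other feedback genes, with an r within groups of 0.76 with the mean of the 8 immediate early genes, against -0.10 for Etv4, -0.14 for Etv5 and -0.09 for Spry4. With the astrocyte markers, in the same way, Spry2 had an r of 0.45, Etv5 of 0.35 and Fgfr3 of 0.13. Fgfr1 had an r of 0.69 with the blood vessel, 0.62 with the meningeal, 0.61 with the radial glia and 0.51 with the microglia markers. Fgfr2 had an r of 0.58 with the radial glia markers.

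**Figure D5:**
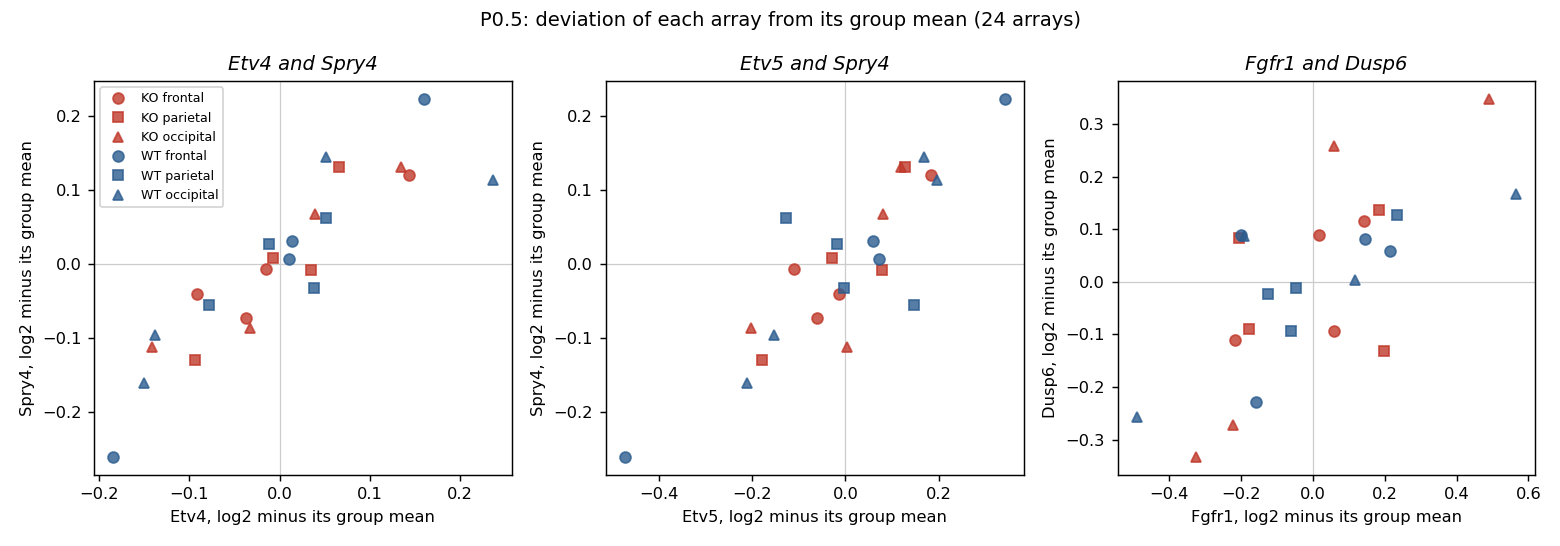
Deviation of each P0.5 array from its group mean (log2) for 3 pairs of members, KO in red and WT in blue, with the region given by the symbol (circle frontal, square parietal, triangle occipital). The points of Etv4 and Spry4 lie along a rising line (r = 0.89), with WT frontal replicate 3 at the low end.

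The genes whose signal over the 24 P0.5 arrays was most like that of a member, by Pearson r, were Nefm (0.87) and Tuba4a (0.87) for Fgf9, Olfm2 (0.92) and Pacsin1 (0.90) for Fgfr3, and Robo1 (0.82) and Auts2 (0.82) for Fgfr2. For Fgfr1 they were Ltbp1 (0.80) and Hopx (0.76). Among the targets they were Vgf (0.94) and Spred3 (0.88) for Spry4, Gfra1 (0.78) and Spred3 (0.77) for Etv4, Gm5820 (0.85) and Bhlhe40 (0.79) for Etv5, and Lrrc9 (0.90) and S100a10 (0.85) for Dusp6. Spred3, a Sprouty-related inhibitor of the Ras step, was thus among the closest genes of both Etv4 and Spry4. For the other Sprouty genes they were Mt2 (0.88) and Ttyh1 (0.87) for Spry2, and Drd4 (0.87) and Gm10457 (0.86) for Spry1. These values hold the differences between groups as well as those between arrays of a group.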

How the data were processed

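RNA of 30 tissue samples was measured on Affymetrix arrays. The deposited values are probe set signals on the log2 scale, which the authors made with Affymetrix Expression Console 1.1 and RMA, per the submitters' processing notes, which give neither the order of steps nor the version of RMA. The labels name the Gene 1.0 ST array, but the E14.5 probe set names follow an older 3' array design, and each stage therefore had its own fit. Nothing was normalised again and no dim genes were removed. Probe sets naming 1 gene were kept (18194 E14.5 and 19938 P0.5 genes, of 45101 and 35557 probe sets), the one with the highest mean per gene. Each member had 1 probe set at P0.5, except Etv5 with 2. Gene symbols came from the platform annotation. No coordinates of probes were used.

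Groups were genotype at E14.5 and genotype by region at P0.5. limma 3.58.1 in R 4.3.3 (two-sided, linear model, empirical Bayes with a trend on mean signal) was fitted to the 6 E14.5 arrays and to the 24 P0.5 arrays in 6 groups, with Benjamini-Hochberg adjustment over all genes of a comparison, and a gene was called at an adjusted p under 0.05. For values over the regions, arrays sharing a genotype and a number (3 each) were first averaged, because no label tells if they share an animal. The Y-linked mean of KO replicate 1 was 5.09 in frontal and 9.32 in occipital tissue. That of KO replicate 2 was 5.28 and 9.18. Same-numbered KO arrays thus differed in sex-linked signal, and the averages cannot be taken as values of single animals. The fits were tested on simulated data. The labels do not say that arrays are separate animals, so p-values measure the spread between these samples, which may be technical.

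Same-numbered arrays were checked for pairing by correlating their deviations from the group means. At E14.5 all 3 pairs were over 0.1 (0.125 to 0.445), as were all 4 of WT parietal with WT occipital tissue (0.124 to 0.276). A replicate block by number was considered apt there, though no label gives a pairing. In the other P0.5 pairs of groups at least 1 pair was under 0.1 (lowest -0.471). The alternatives were other probe sets, the mean over all probe sets per gene, a filter on the dimmest 30% of genes, array medians subtracted, no intensity trend, array weights, blocks, a fit limited to the arrays compared, the Y-linked level as a covariate and leaving out each array. A block in the limited fit, and dropping the array of each genotype least correlated with the others (WT frontal replicate 4 and KO parietal replicate 2), were added after seeing the data, as were the array ranks and the correlations with marker lists. The text names all 10 members, the sex-linked genes and Tbr1, called genes of the pathway lists (at most 6 per comparison by adjusted p), and the 2 genes most like each member. The members and the 23 gene lists were chosen with earlier results of these data known.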

Additional observations from a re-analysis of the deposited data

Results flagged for a closer look

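Among the 60 groups of 4 arrays formed by the 10 members at P0.5, 4 held an array far from the other 3 by Dixon's criterion, which chance gives in about 1 of 20 groups. Fgfr2 on KO occipital replicate 1 was at 8.46, above the other 3 KO arrays. Fgfr3 on WT parietal replicate 1 was at 8.57, above its group, and on WT occipital replicate 2 at 8.60, below its group. Dusp6 on WT frontal replicate 3 was at 9.21, below its group. The groups of 3 at E14.5 were not examined in this way.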

How the results depend on the processing

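The 140 differences of the members were recomputed in 2666 alternatives, of which 2561 left the call as it was, 56 ended one, 49 added one and 0 reversed a called sign. Of 18 calls, 7 held in all alternatives run and 18 kept their sign. The number of members called was 4 in frontal KO against WT, and 1 with the Y-linked covariate and 2 with a replicate block in a fit limited to the arrays compared. In parietal KO against WT it was 1, and 0 with the mean of the probe sets, no intensity trend, the replicate block, the Y-linked covariate or without the array of each genotype that correlated least with the others (WT frontal replicate 4 and KO parietal replicate 2), and 2 with array weights. In occipital KO against WT it was 1, 5 with array weights, and 2 without the dimmest genes, with either replicate block, in a fit limited to the arrays compared or without those 2 arrays. Over the regions it was 5, and 2 with the Y-linked covariate. For KO frontal against occipital tissue it was 1, 3 with array weights and 2 with array medians subtracted or the replicate block. For KO parietal against occipital tissue it was 2, 0 with the replicate block in a fit limited to the arrays compared, and 1 with array medians subtracted, a fit limited to the arrays compared, the Y-linked covariate or without those 2 arrays. Array weights gave 3 instead of 1 for WT parietal against occipital and 1 instead of 0 for KO frontal against parietal tissue, and 3 and 2 instead of 0 for the interactions with occipital tissue, of which the frontal one gave 1 without the dimmest genes. Leaving out single replicates gave 4 to 6 members in frontal, 0 to 1 in parietal and 1 to 3 in occipital KO against WT, and 2 to 5 over the regions. Between regions it gave 3 to 4 (frontal to occipital), 0 to 1 (frontal to parietal) and 0 to 1 (parietal to occipital) in WT, and 1 to 2, 0 to 0 and 1 to 2 in KO. For the interactions it gave 0 to 2 (frontal to occipital), 0 to 0 (frontal to parietal) and 0 to 1 (parietal to occipital), and 0 to 0 at E14.5. The replicate block changed no other count by over 1.5 times. The causes were not tested. With 3 or 4 arrays a group, the number of arrays limits what differences can be called. Dim genes such as Fgf9 and Etv4 at E14.5 lie near the array median.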
